A study of Mus musculus with 4 samples.

Results

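The SUMO machinery was followed here through 8 genes of the 27998 counted in the deposited tables, each chosen by its symbol: Ranbp2, which encodes Nup358, the modifiers Sumo2 and Sumo3, the activating enzyme subunits Sae1 and Uba2, the SUMO proteases Senp1 and Senp2, and the E3 ligase Pias1. All 8 symbols were found, and each named a single row. The cells were mouse bone marrow LSK cells, which carry no lineage markers (Lin-) and are Sca1+ and cKit+, the compartment of stem cells and multipotent progenitors. They were profiled by droplet 3′ single-cell RNA sequencing in 4 libraries, 2 control and 2 Nup358 knockout, each pooled from 3 mice, so that 6 mice stood behind each genotype. All mice were Nup358 fl/fl, 9 to 12 weeks old, and received tamoxifen on 3 consecutive days. Knockout mice carried a tamoxifen-regulated Cre (R26-CreERT2) that is not restricted to blood cells, so the deletion was not confined to LSK cells, and the control mice, called wild-type in the labels, lacked it. The libraries of a genotype were separate pools of mice, and p-values between genotypes rest on the spread between them. Where cells are set against the other cells of their library, p-values rest on how that difference varied between libraries.

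SUMO proteins are small ubiquitin-like modifiers that are joined to lysines of other proteins. The heterodimer of Sae1 and Uba2 activates SUMO, E3 ligases such as Pias1 and Nup358 help pass it to the target, and Senp proteases both mature the SUMO precursors and take SUMO off again. Nup358 sits on the cytoplasmic filaments of the nuclear pore, where it binds Ran and the SUMO-modified form of RanGAP1, and it also takes part in nuclear import and export.

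Ranbp2 lies on the plus strand at chr10:58446920-58494356 (GRCm38). Its longest annotated coding transcript had 29 exons and 9608 bases. The paper names exon 2 as the recombined exon and gives no coordinates. It was taken here as exon 2 of this transcript, at chr10:58451984-58452051, of which all 68 bases are coding. These 68 bases, which are 2 more than a whole number of codons, are shown as the part that the knockout was taken to remove, and 9410 transcript bases lie between them and the 3′ end from which the molecules were counted:

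Ranbp2 exon 2: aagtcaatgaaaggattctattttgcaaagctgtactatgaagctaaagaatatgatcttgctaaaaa

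The UMIs of Ranbp2 (unique molecular identifiers, which count captured RNA molecules) therefore came from a part of the transcript that both genotypes keep, and they check no genotype label. The other members were Sumo2 (chr11:115523102-115536276, minus strand, 4 exons), Sumo3 (chr10:77606097-77618331, plus strand, 4 exons), Sae1 (chr7:16320234-16387806, minus strand, 9 exons), Uba2 (chr7:34140688-34169599, minus strand, 17 exons), Senp1 (chr15:98038744-98093744, minus strand, 18 exons), Senp2 (chr16:22009484-22049269, plus strand, 17 exons) and Pias1 (chr9:62878368-62987924, minus strand, 14 exons). No other counted gene had a transcript sharing 80 bases or more at 95% identity with the last 500 bases of a member, and no exon of another gene overlapped a member's last exon.

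RefSeq promoter sequences (GRCm38.p6) were held for 7 of the 8 members. Those of Ranbp2, the gene that the study deletes, and Sumo2, the member with the most UMIs, are shown. The window searched was the 250 bases before each start. Bases that the annotation places in an exon were left out of the print, which left 250 bases at chr10:58446602-58446851 for Ranbp2 and 204 bases at chr11:115536277-115536480, read on the minus strand, for Sumo2. Capitals mark the motif letters found:

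Ranbp2: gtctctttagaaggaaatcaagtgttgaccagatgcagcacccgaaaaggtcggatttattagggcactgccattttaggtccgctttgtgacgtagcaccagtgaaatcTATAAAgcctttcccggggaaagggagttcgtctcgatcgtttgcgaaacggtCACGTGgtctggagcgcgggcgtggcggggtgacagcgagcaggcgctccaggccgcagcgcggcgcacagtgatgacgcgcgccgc

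Sumo2: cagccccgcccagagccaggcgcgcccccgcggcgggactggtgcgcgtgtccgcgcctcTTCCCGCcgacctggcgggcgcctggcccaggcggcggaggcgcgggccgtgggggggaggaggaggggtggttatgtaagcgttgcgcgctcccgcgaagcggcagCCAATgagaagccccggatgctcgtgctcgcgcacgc

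The Ranbp2 window held the TATA box letters TATAAA, found in 12.4% of 32851 mouse promoter windows of this length on either strand, and the E-box CACGTG, found in 6.02%. The Sumo2 window held the E2F letters GCGGGAA on the other strand, as TTCCCGC (3.82% of windows), and the CCAAT box (33.8%). Of the other letters searched, CCGGAAG (ETS, 6.91%) occurred in a window of Uba2 and of Senp1, GCGGGAA in that of Pias1, and GCATGCG (NRF1, 3.02%) and TGACGTC (CRE, 2.78%) in that of Senp2, while the windows of Sumo3 held none of them. A match of letters is a description and does not show a bound site.

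The libraries differed in ways that touch every result. The deposited tables held 25242 barcodes. Of the different barcode sequences, 6680 were found in 2 or more libraries. Where another library held 3 times the UMIs of a barcode or more, that barcode was taken as a copy and left out. Copies made up 14.8% and 18.8% of the barcodes of control 1 and Nup358 knockout 2 but 81.8% and 65.3% of those of control 2 and Nup358 knockout 1, and 1.61% to 24.6% of a library's UMIs. After this and the filters on quality 14041 cells remained: 7830 in control 1, 1200 in control 2, 1589 in Nup358 knockout 1 and 3422 in Nup358 knockout 2, with 18846887 to 59033602 UMIs a library and a median of 6251 to 17707 UMIs a cell. All 6 LSK markers were detected in every library, Kit at 73 to 103 CPM (counts per 1000000 UMIs) and Ly6a, which encodes Sca1, at 133 to 317 CPM. All 8 neutrophil markers were detected in each library, and their sum was 4638 to 7104 CPM in the controls against 702 to 1166 CPM in the knockouts. All 9 B lineage markers summed to 48 to 53 CPM against 149 to 445 CPM, and all 4 plasma cell markers to 61 to 195 CPM against 339 to 519 CPM. Basophil and mast cell markers summed to 22 to 31 CPM against 76 to 172 CPM, with 5 of the 6 detected in control 2 and all 6 elsewhere. All 8 immediate early genes, which respond to handling and stimulation, summed to 3166 to 3418 CPM in control and 1196 to 1395 CPM in knockout. The 4 haemoglobin genes summed to 1347 CPM in control 2 and 126 to 224 CPM elsewhere. The part of these differences in the results on all cells was not tested.

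Taken over all LSK cells, none of the 8 genes passed the test between Nup358 knockout and control. Levels are given as normalized CPM, the CPM after trimmed-mean (TMM) scaling across all the sums compared. Ranbp2 stood at 126 normalized CPM in control 1, 105 in control 2, 122 in Nup358 knockout 1 and 125 in Nup358 knockout 2. Both knockout libraries lay between the controls, with means of 115 ± 15.3 (SD, n = 2) in control and 123 ± 1.78 (SD, n = 2) in knockout, a log2 difference of 0.09 ± 0.15 (SE; 95% interval -0.28 to 0.46; edgeR quasi-likelihood test, adjusted p = 0.78). A deficit of 3′ Ranbp2 UMIs in the knockout was thus not detectable with these libraries, which says nothing of the protein.

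Among the modifiers, Sumo2 measured 611 and 745 normalized CPM in the controls and 708 and 754 in the knockouts, which overlapped (log2 difference 0.11 ± 0.17 SE; 95% interval -0.31 to 0.52). Sumo3 measured 219 and 174 in the controls and 155 and 170 in the knockouts. Both knockouts lay below both controls, with means of 197 ± 32.0 (SD, n = 2) and 163 ± 11.0 (SD, n = 2), but the log2 difference of -0.28 ± 0.17 (SE) had an adjusted p of 0.40 by edgeR. For these genes the distance between the libraries of 1 genotype was as large as that between the genotypes.

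The activating enzyme had the smallest p-values of the set. Its subunit Sae1 measured 153 and 124 normalized CPM in control and 160 and 175 in knockout, means of 138 ± 20.1 and 168 ± 10.2 (SD, n = 2 each). Uba2, the catalytic subunit of the enzyme, measured 101 in both controls and 118 and 123 in the knockouts, means of 101 ± 0.153 and 120 ± 3.62 (SD, n = 2 each). Both knockout libraries lay above both controls for each subunit. The log2 differences were 0.27 ± 0.16 (SE; edgeR adjusted p = 0.39) for Sae1 and 0.25 ± 0.14 (SE; edgeR adjusted p = 0.35) for Uba2, and neither passed.

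The proteases and the ligase had smaller differences. Senp1, a nuclear protease, measured 51.3 and 40.7 normalized CPM in control and 51.2 and 49.5 in knockout. Senp2, which associates with the nuclear pore, measured 24.9 and 25.5 against 25.6 and 26.9, and Pias1 measured 27.5 and 24.6 against 23.9 and 22.6. The knockouts lay inside the control range for Senp1, just above it for Senp2 and below it for Pias1. The log2 differences of 0.12 ± 0.16, 0.06 ± 0.14 and -0.17 ± 0.14 (SE) did not pass (edgeR adjusted p = 0.70, 0.85 and 0.54).

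**Figure D1:**
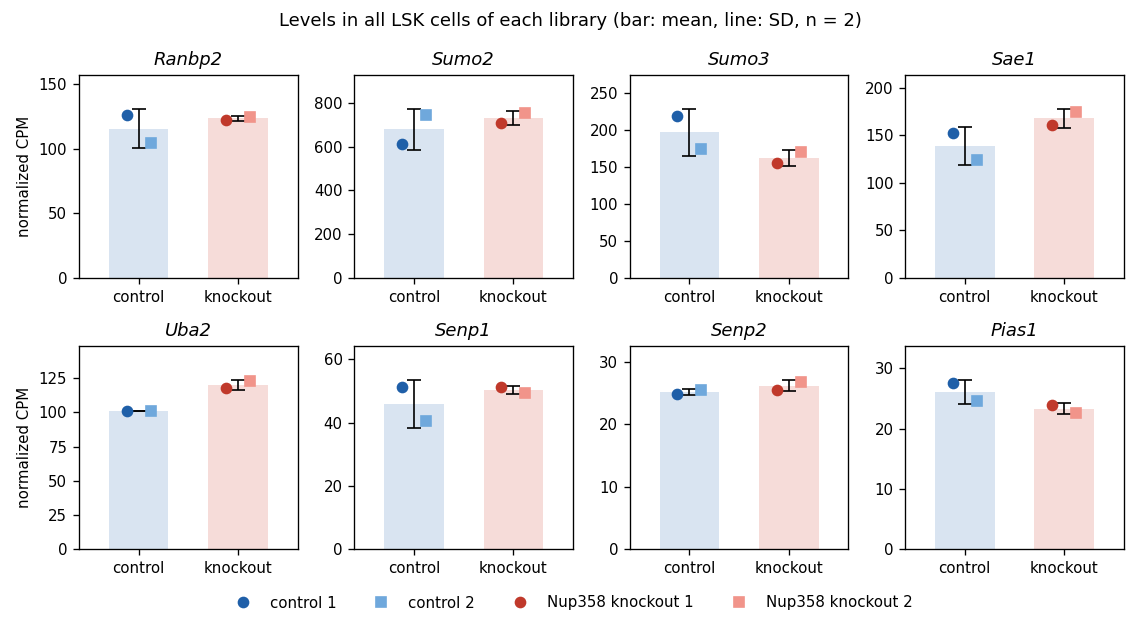
Normalized CPM (vertical axis, from 0) of the 8 genes summed over all LSK cells of each library, with control 1 and 2 in blue, Nup358 knockout 1 and 2 in red, bars for the genotype mean and lines for its SD (n = 2). The knockout libraries lie above both controls for Sae1 and Uba2, below both for Sumo3 and Pias1, and within the controls for Ranbp2.

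In counts, 0 of the 8 genes were called at an adjusted p under 0.05, beside 474 of 13779 genes tested (3.44%). At an unadjusted p under 0.05, 0 of the 8 passed as well, beside 2986 of the 13779 genes. DESeq2 called 0, beside 946 of all genes. The median log2 difference was 0.10 over the 8 genes and -0.01 over all genes. Without control 1, which leaves a single control library, the log2 difference of Sae1 was 0.44. With the cells gated as B lineage, plasmacytoid dendritic, plasma and T or NK left out, the count stayed at 0. Of the other 26 genes of the SUMO pathway, 0 were called by edgeR or DESeq2, 2 passed at an unadjusted p under 0.05 and 14 had a difference above 0. All 6 genes of a list of direct partners of Nup358, which holds Ran, Rangap1, Kpnb1, Xpo1 and Bicd2 and overlaps the SUMO list, had a difference above 0, with a median of 0.53. By edgeR 0 of them were called, with 2 at an unadjusted p under 0.05, and DESeq2 called 2. Rangap1, whose product is held at the pore by Nup358, measured 120 and 56 normalized CPM in control and 139 and 159 in knockout (0.75 ± 0.33 SE; edgeR adjusted p = 0.24), so the controls differed more from each other than knockout from the higher control.

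Cells were assigned to a progenitor type by the summed UMIs of a short marker list, none of which held a member of the SUMO machinery. Of 14041 cells, 12.2% passed more than 1 lineage gate and went to the gate they exceeded most, and doublets were not removed. Gates for neutrophil-primed, monocyte and dendritic, megakaryocyte-primed, erythroid-primed, stem-like and lymphoid-primed cells, and the cells in no lineage gate, held at least 20 cells in every library and were tested. The neutrophil gate held 1939 and 156 cells in the controls and 70 and 68 in the knockouts, and the stem-like gate 959, 264, 237 and 491 cells in the order control 1, control 2, Nup358 knockout 1 and Nup358 knockout 2.

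Across these 7 types the members kept narrow ranges of level. The highest type mean exceeded the lowest by a ratio of 1.10 for Senp1, 1.26 for Sumo3, 1.30 for Sumo2, 1.36 for Senp2, 1.37 for Pias1, 1.38 for Ranbp2, 1.45 for Uba2 and 1.49 for Sae1. Ranbp2 ran from 144 ± 35.1 normalized CPM (SD over the 4 libraries) in erythroid-primed cells, through 126 ± 18.0 in lymphoid-primed, 125 ± 13.3 in stem-like, 119 ± 18.5 in monocyte and dendritic, 118 ± 10.5 in ungated and 117 ± 9.39 in neutrophil-primed cells, to 104 ± 7.95 in megakaryocyte-primed cells. Every pair of neighbours in this order overlapped within their SD, and the same held for each of the other 7 genes. Neighbours in an order by mean lie close together and the SD pools both genotypes, so the overlap is no test between types.

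Sae1 and Uba2 were both highest in neutrophil-primed and lowest in stem-like cells. Sae1 ran from 175 ± 12.3 in neutrophil-primed through 155 ± 24.1 in ungated, 145 ± 35.4 in erythroid-primed, 144 ± 19.6 in lymphoid-primed, 142 ± 17.3 in megakaryocyte-primed and 135 ± 26.7 in monocyte and dendritic cells to 117 ± 27.3 normalized CPM in stem-like cells (SD, n = 4). Uba2 ran from 128 ± 13.3 in neutrophil-primed through 123 ± 14.4 in erythroid-primed, 112 ± 14.9 in ungated, 111 ± 14.1 in monocyte and dendritic, 108 ± 15.0 in megakaryocyte-primed and 107 ± 16.0 in lymphoid-primed cells to 88.0 ± 22.1 in stem-like cells. Sumo2 shared both ends of this order, at 779 ± 74.4 in neutrophil-primed and 597 ± 95.3 in stem-like cells, while Sumo3 peaked in megakaryocyte-primed cells at 203 ± 21.9 and was also lowest in stem-like cells, at 162 ± 21.2. Pias1 had the opposite ends, 27.3 ± 4.46 in stem-like and 19.9 ± 3.14 in neutrophil-primed cells. Senp1 lay between 46.5 ± 5.78 (erythroid-primed) and 51.1 ± 8.88 (megakaryocyte-primed), and Senp2 between 24.1 ± 2.90 (neutrophil-primed) and 32.7 ± 12.5 (monocyte and dendritic).

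**Figure D2:**
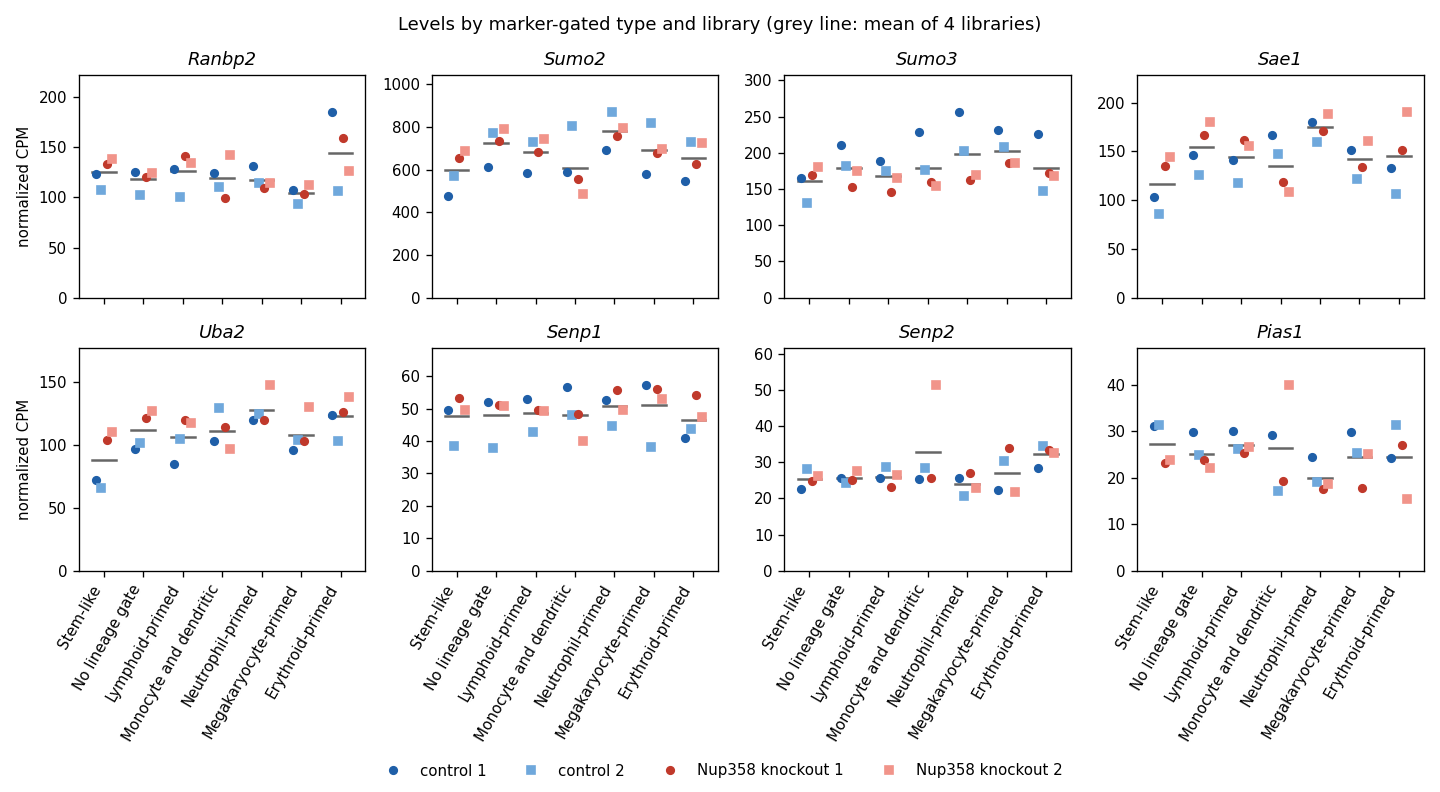
Normalized CPM (vertical axis, from 0) of the 8 genes in 7 gated types (horizontal axis) in each of the 4 libraries, with a grey line at the mean of the libraries. Ranges are narrow and libraries overlap between neighbouring types; stem-like cells have the lowest means of Sumo2, Sumo3, Sae1 and Uba2.

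Comparing each type with the other cells of its own library removes the baseline of each library. How the difference between type and other cells varies from library to library remains as the error. In neutrophil-primed cells 5 of the 8 genes were called, beside 47.0% of all genes tested. With so many genes called, this count lay near the background and is no result about the members. Sumo2 (0.22 ± 0.06 on the log2 scale, SE), Sumo3 (0.22 ± 0.08), Sae1 (0.30 ± 0.08) and Uba2 (0.31 ± 0.08) were higher than in the other cells and Pias1 was lower (-0.33 ± 0.09), with edgeR adjusted p of 0.0098, 0.031, 0.0075, 0.0056 and 0.012. Sae1 measured 180, 160, 171 and 188 normalized CPM in the neutrophil gate against 140, 115, 159 and 174 in the other cells, in the order control 1, control 2, Nup358 knockout 1 and Nup358 knockout 2. Pias1 measured 24.5, 19.2, 17.5 and 18.5 against 29.5, 26.0, 24.2 and 22.7. Each of the 4 libraries showed the direction for both genes.

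Scaling mattered for these neutrophil values. With library totals in place of TMM, the median of all genes lay at -0.22 in place of -0.01 in this comparison, and the calls split into 1736 higher and 4880 lower genes in place of 3250 higher and 2900 lower. The log2 differences of Sumo2, Sumo3, Sae1 and Uba2 then fell short of a call, at 0.01, 0.01, 0.09 and 0.10, Pias1 was called at -0.54, and Ranbp2 (-0.19) and Senp2 (-0.27) were called as well. Without control 1, which held most neutrophil-gated cells, Sumo2, Sumo3, Sae1 and Uba2 were not called (0.15, 0.12, 0.23 and 0.23), and Sumo3 was not called without control 2 (0.18) or without Nup358 knockout 1 (0.24).

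Stem-like cells, gated on 9 genes such as Procr and Hlf, showed lower RNA for the activating enzyme and for Sumo2. Called were 3 of the 8 genes, beside 40.5% of all genes tested, a background that this share did not exceed. They were Sae1 (-0.45 ± 0.08 SE), Uba2 (-0.39 ± 0.09) and Sumo2 (-0.28 ± 0.07), with edgeR adjusted p of 0.0031, 0.011 and 0.011. Sae1 measured 103, 86.0, 135 and 145 normalized CPM in stem-like cells against 158, 132, 164 and 180 in the other cells (control 1, control 2, Nup358 knockout 1, Nup358 knockout 2). Uba2 measured 72.3, 65.9, 104 and 110 against 104, 109, 119 and 125, and Sumo2 measured 475, 570, 656 and 687 against 627, 784, 714 and 768. Stem-like cells were the lower sum in all 4 libraries for each of these genes, by a wider margin in both controls than in both knockouts. Sumo3 was lower in both controls and higher in both knockouts, and its log2 difference over the 4 libraries was -0.16 ± 0.11 (SE; edgeR adjusted p = 0.27).

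With library totals in place of TMM the median of all genes moved by 0.16 in the stem-like comparison, and the calls split into 3965 higher and 1519 lower genes in place of 2376 higher and 2727 lower. Sae1 was still called (-0.28, edgeR adjusted p = 0.013), Sumo2 (-0.12) and Uba2 (-0.23) were not, and Ranbp2 (0.24) and Pias1 (0.32) were called as higher. Without control 1, Sumo2 (-0.24) and Uba2 (-0.34) were not called.

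In erythroid-primed cells Ranbp2 was called, the only member called there, beside 23.8% of all genes tested. It measured 185, 106, 159 and 126 normalized CPM in the gate and 125, 105, 121 and 125 in the other cells (control 1, control 2, Nup358 knockout 1, Nup358 knockout 2), a log2 difference of 0.30 ± 0.11 (SE; edgeR adjusted p = 0.046). The gap was wide in control 1 and Nup358 knockout 1 and near 0 in control 2 and Nup358 knockout 2. The gate held 135, 22, 22 and 58 cells in this order of libraries. The call was lost under 8 of the alternatives, among them DESeq2 (0.29, adjusted p = 0.16) and the fits without control 1 (0.18) and without Nup358 knockout 1 (0.26), and with cells thinned to 2000 UMIs the difference was -0.11. Counts of called members were 0 in monocyte and dendritic (background 6.35%), megakaryocyte-primed (20.6%), lymphoid-primed (18.4%) and ungated cells (3.99%). DESeq2 also called 0 in each of these, at an unadjusted p under 0.05 only 1 passed, in megakaryocyte-primed cells, and with library totals in place of TMM Sumo3 was called there (0.24).

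**Figure D3:**
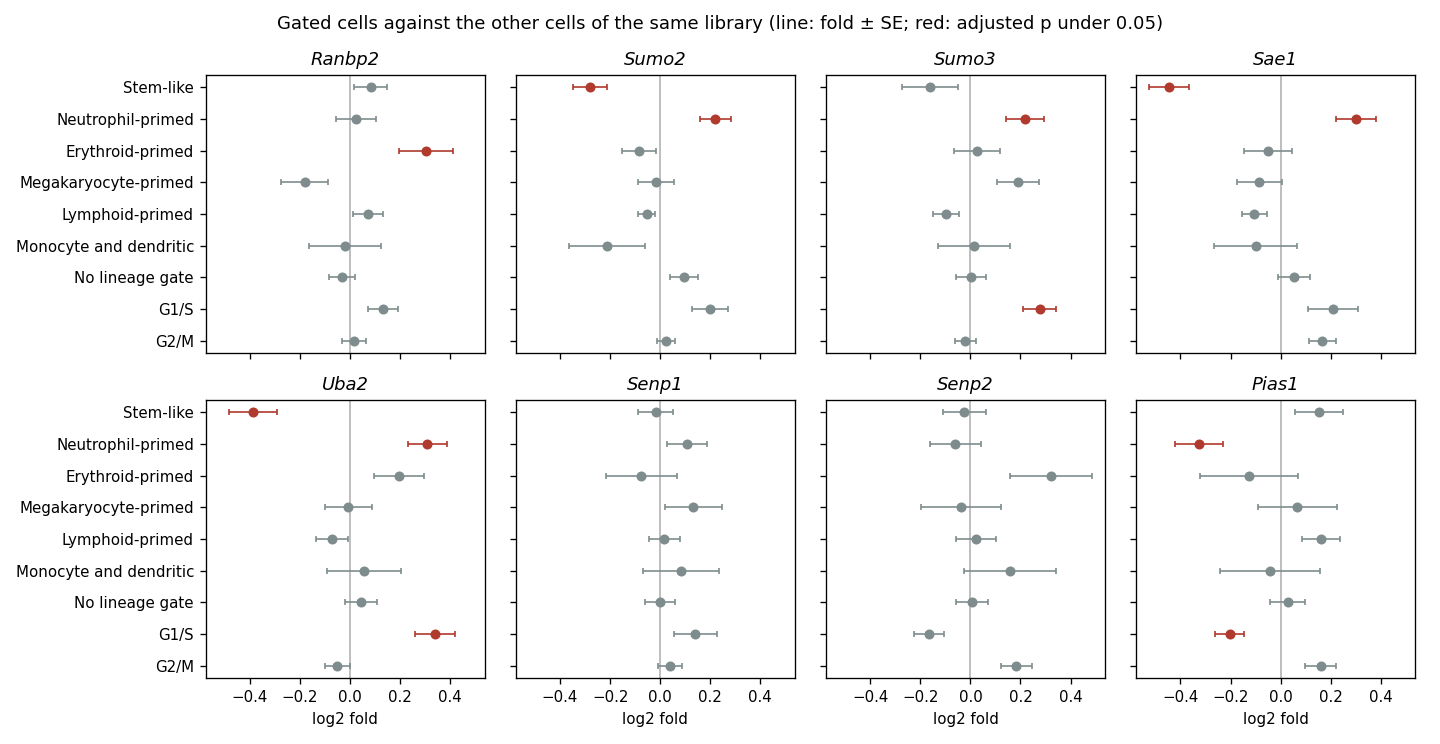
Log2 difference (horizontal axis) between gated cells and the other cells of the same library for the 8 genes, with a line of 1 SE to each side and calls at an adjusted p under 0.05 in red. Stem-like and neutrophil-primed cells sit on opposite sides of 0 for Sumo2, Sae1 and Uba2, and Ranbp2 is red only in the erythroid-primed row.

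SUMO is used in many steps of division, so cells were also gated on G2/M and G1/S marker lists. In G1/S-gated cells 3 of the 8 genes were called, beside 18.5% of all genes: Uba2 (0.34 ± 0.08 SE, edgeR adjusted p = 0.018) and Sumo3 (0.28 ± 0.07, 0.019) were higher than in the other cells, and Pias1 was lower (-0.20 ± 0.06, 0.039). DESeq2 called Uba2 and Sumo3 but not Pias1 (adjusted p = 0.20), beside 12.5% of all genes. Uba2 measured 115, 132, 131 and 137 normalized CPM against 94.7, 87.1, 110 and 117 in the other cells (control 1, control 2, Nup358 knockout 1, Nup358 knockout 2), with every library in the same direction. Sumo3 measured 243, 210, 173 and 189 against 209, 158, 144 and 164. These calls rest on all 4 libraries together, and their number moved when a library was left out. In G2/M-gated cells 0 of the 8 were called, beside 16.8% of all genes. At an unadjusted p under 0.05, 3 passed, beside 4505 of 13358 genes. DESeq2 also called 0 there. Rangap1, a gene of the wider list, was higher in G2/M-gated cells (0.86 ± 0.14 SE, edgeR adjusted p = 0.0066), at 167, 117, 181 and 196 normalized CPM against 89, 41, 121 and 132, and lower in G1/S-gated cells (-0.38 ± 0.07, 0.0085).

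Within gated types the genotypes were then compared again, since the types made up different shares of each library. Of the 56 pairs of gene and type, 0 were called by edgeR. It called 1.21% of all genes in neutrophil-primed, 0.762% in monocyte and dendritic, 0.782% in megakaryocyte-primed, 0.933% in erythroid-primed, 7.07% in stem-like, 1.76% in lymphoid-primed and 4.69% in ungated cells. DESeq2 also called 0 of the pairs, beside 1.54%, 0.818%, 0.245%, 0.435%, 4.18%, 1.67% and 6.05% of all genes in the same order of types. At an unadjusted p under 0.05, 2824 of 10912 genes passed in stem-like, 3296 of 12637 in ungated and 1536 of 9739 in neutrophil-primed cells. Of the members, 3, 2 and 1 passed by edgeR in this order. The largest of these was Uba2 in stem-like cells, where both knockouts (104 and 110 normalized CPM) lay above both controls (72.3 and 65.9), a log2 difference of 0.58 ± 0.16 (SE; edgeR adjusted p = 0.060). Sae1 followed there at 0.52 ± 0.17 (adjusted p = 0.090) and Pias1 at -0.45 ± 0.18 (adjusted p = 0.15). Without control 1 the log2 differences in stem-like cells were 0.65 for Uba2 and 0.65 for Sae1, and without control 2 that of Uba2 was 0.53. Each of these fits leaves a single control library. Ranbp2 had log2 differences between -0.15 and 0.26 over the 7 types.

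Cells in the cycle gates were unevenly spread. Of the stem-like cells, 33.6% and 14.4% lay in a cycle gate in the controls and 58.2% and 71.5% in the knockouts, whereas in the neutrophil gate the shares were 69.3% and 55.8% against 27.1% and 35.3%. For the comparisons within types, an alternative chosen after these shares were seen left all cycle-gated cells out. In the remaining cells Sae1 was called in ungated cells (0.80 ± 0.16 SE, edgeR adjusted p = 0.0068) and in lymphoid-primed cells (0.84 ± 0.19, 0.011), and Uba2 in ungated cells (0.66 ± 0.16, 0.016). The share of all genes called in these fits had also risen, to 22.1% in ungated and 11.9% in lymphoid-primed cells, so that 2 and 1 called of the 8 members lay near the background. In stem-like cells Sae1 differed by 0.55 and Uba2 by 0.60, which were not called (6.48% of all genes). Over all LSK cells outside the cycle gates Sae1 differed by 0.60 (adjusted p = 0.077) and Uba2 by 0.45 (adjusted p = 0.099), which did not pass (7.81% of all genes).

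**Figure D4:**
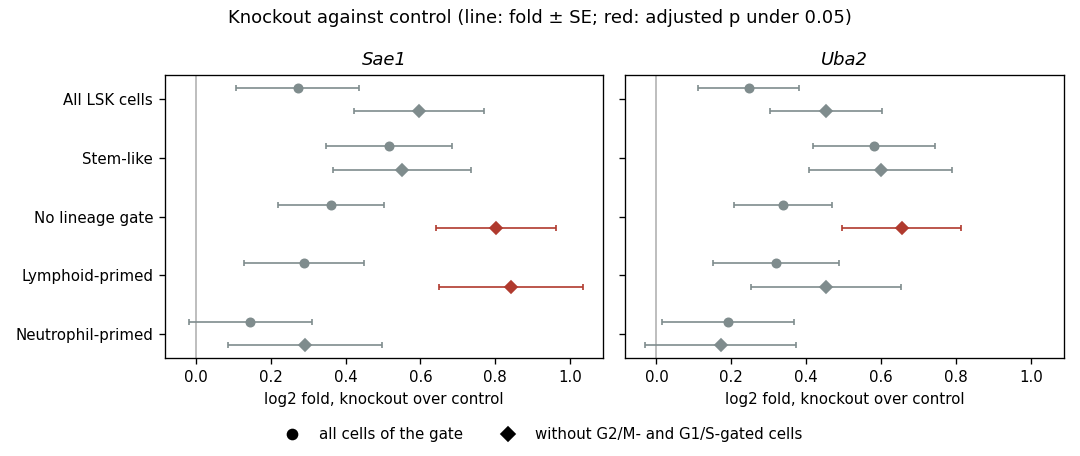
Log2 difference of Sae1 and Uba2, Nup358 knockout over control (horizontal axis), in all LSK cells and in 4 gates, with a line of 1 SE to each side; circles use all cells of the gate, diamonds leave out cells in the G2/M and G1/S gates, and red marks an adjusted p under 0.05. Outside the cycle gates Sae1 is red in ungated and lymphoid-primed cells and Uba2 in ungated cells, beside 22.1% (ungated) and 11.9% (lymphoid-primed) of all genes; with all cells none is red, beside 4.69% and 1.76% of all genes.

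Whether the genotype difference itself was unlike in a type and in the other cells of the same libraries was tested as an interaction. In stem-like cells 4 of the 8 genes were called, beside 13.2% of all genes tested, all with a higher knockout-to-control ratio in stem-like than in other cells. Sumo3 had the largest value, 0.54 ± 0.08 (SE; edgeR adjusted p = 0.00018). It measured 166 and 131 normalized CPM in stem-like cells of the controls and 169 and 180 in those of the knockouts, against 226 and 184 and then 152 and 170 in the other cells. Uba2 followed at 0.38 ± 0.10 (0.012), Sae1 at 0.29 ± 0.08 (0.030) and Sumo2 at 0.26 ± 0.06 (0.0046). Ranbp2 (0.13 ± 0.08), Senp1 (0.08 ± 0.11), Senp2 (-0.04 ± 0.16) and Pias1 (-0.28 ± 0.15) were not called.

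These 4 values moved with the cycle gates. Without cycle-gated cells the stem-like interactions were 0.38 for Sumo3 (adjusted p = 0.14), 0.27 for Uba2, 0.08 for Sumo2 and 0.06 for Sae1, and 0 of the 8 were called, beside 2.05% of all genes. In neutrophil-primed cells Sae1 (-0.57), Uba2 (-0.51) and Sumo3 (-0.49) were then called, beside 7.78% of all genes, of which 836 of 927 were lower, and a median of all genes of -0.14. DESeq2 called 2 of the 8 stem-like interactions, Sumo3 and Sumo2, beside 5.83% of all genes. It did not call Uba2 (0.37, adjusted p = 0.081) or Sae1 (0.27, adjusted p = 0.18). Leaving out either knockout library left Sumo3 as the only call, and leaving out control 1 lost Sae1 (0.32, adjusted p = 0.079). With library totals in place of TMM, Sumo2, Sumo3 and Uba2 were called and Sae1 was not (0.24). In each of the other 6 types 0 of the 8 interactions were called by edgeR. It called 3.20% of all genes in neutrophil-primed, 0.970% in monocyte and dendritic, 0.819% in megakaryocyte-primed, 1.83% in erythroid-primed, 4.83% in lymphoid-primed and 15.2% in ungated cells. DESeq2 also called 0 members in each, beside 0.979%, 0.176%, 0.104%, 0.489%, 0.918% and 4.83% of all genes in the same order of types. At an unadjusted p under 0.05 by edgeR, 1 passed in neutrophil-primed, 2 in monocyte and dendritic and 1 in lymphoid-primed cells. Of all genes, 1834 of 13081, 1026 of 12480 and 2185 of 12413 passed at this threshold in these types.

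**Figure D5:**
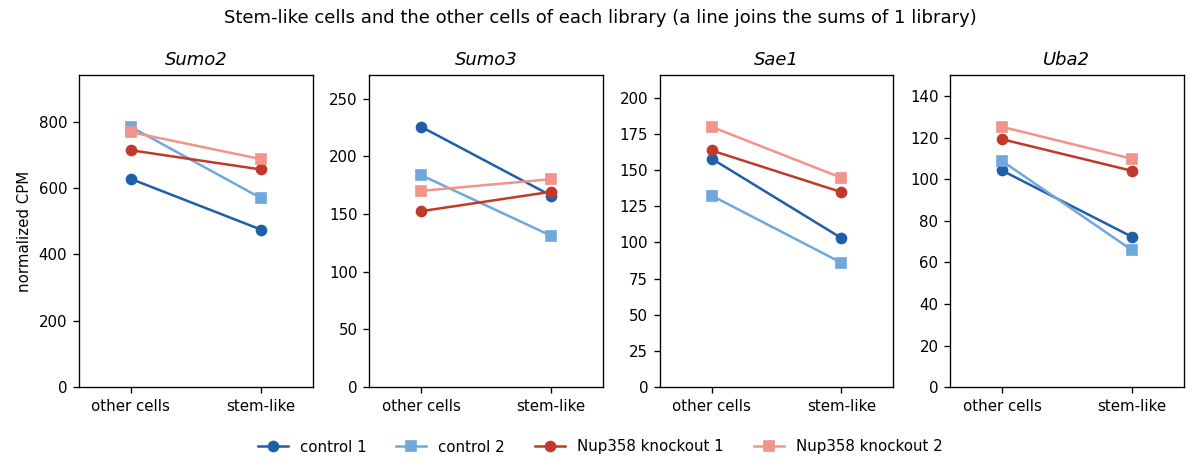
Normalized CPM (vertical axis, from 0) of Sumo2, Sumo3, Sae1 and Uba2 in the other cells (left) and the stem-like cells (right) of each library, joined by a line. Lines fall from other to stem-like cells in both controls for all 4 genes; in the knockouts they fall less for Sumo2, Sae1 and Uba2 and rise for Sumo3.

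The rest of the pathway was split in direction. Of the other 26 SUMO genes, 9 were called in stem-like cells against the other cells, 4 higher and 5 lower, beside 40.5% of all genes, and 9 in neutrophil-primed cells, 3 higher and 6 lower, beside 47.0%, so that neither share exceeded the background. With library totals in place of TMM these splits became 11 higher and 2 lower, and 0 higher and 12 lower. The protease Senp7, which edits SUMO chains, was higher in stem-like (0.43) and lower in neutrophil-primed cells (-0.45). The same held for Pias3 (0.50 and -0.77), an E3 ligase, and Pml (0.39 and -0.53), the SUMO-modified scaffold of nuclear bodies. These 3 were called in the same directions with library totals. That setting moved the median of all genes in these directions too, to 0.16 in stem-like and -0.22 in neutrophil-primed cells, so it is no check on them. In lymphoid-primed cells 6 of the 26 were called, all higher, beside 18.4% of all genes. Without cycle-gated cells 2 of the 26 were called, beside 9.03%, and both counts lay near the background. The 6 were led by Zmiz1, a Pias-like coactivator (0.56 ± 0.05, edgeR adjusted p = 2.1e-05). Medians over the 26 were -0.03 in stem-like and 0.00 in neutrophil-primed cells, beside 0.00 and -0.01 over all genes.

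The transport partners of Nup358 passed between genotypes in some types. Kpnb1, which encodes importin beta, was higher in knockout in stem-like (1.08 ± 0.23 SE, edgeR adjusted p = 0.029), lymphoid-primed (1.07 ± 0.18, 0.025), ungated (1.02 ± 0.15, 0.023), neutrophil-primed (1.03 ± 0.19, 0.032) and megakaryocyte-primed cells (0.89 ± 0.21, 0.042). Its levels in stem-like cells were 90 and 53 normalized CPM in control and 146 and 167 in knockout, with no overlap. In stem-like cells 4 of the 6 partners were called, all higher, beside 7.07% of all genes. Besides Kpnb1 these were Xpo1 (0.94), which encodes the export receptor Crm1, Ran (0.85) and Rangap1 (1.04). Ran measured 744 and 564 normalized CPM in stem-like cells of the controls and 1141 and 1301 in those of the knockouts. Its interaction of 0.59 ± 0.05 (SE) was called (edgeR adjusted p = 1.4e-06), beside 13.2% of all genes. Without cycle-gated cells 4 of the 6 partners were still called in stem-like cells, 5 in ungated, 4 in lymphoid-primed, 1 in megakaryocyte-primed (Rangap1, 2.08, with Kpnb1 at 0.97 not called) and 0 in neutrophil-primed cells, all higher in knockout. Of all genes, 6.48%, 22.1%, 11.9%, 0.434% and 1.22% were called in these fits. The megakaryocyte-primed gate then held only 91 and 12 cells in the controls and 10 and 28 in the knockouts, in some libraries below the minimum of 20. With all cells, 1 partner was called in ungated and 2 in lymphoid-primed cells, beside 4.69% and 1.76% of all genes. Neutrophil-primed and megakaryocyte-primed cells had 1 called partner each, beside 1.21% and 0.782%. Without cycle-gated cells the interaction of Ran in stem-like cells was 0.33 (edgeR adjusted p = 0.010). With library totals in place of TMM, Kpnb1 in megakaryocyte-primed (0.86, edgeR adjusted p = 0.092) and Xpo1 in lymphoid-primed cells were not called, and DESeq2 called 0 partners in megakaryocyte-primed cells.

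Over 35 sums of a gated type in a library, as CPM centred within each library, Sae1 and Uba2 followed each other closely (Pearson r = 0.90), and both followed Senp1 (0.81 and 0.84) and Sumo2 (0.77 and 0.79). Pias1 ran the other way from Sumo2 (-0.56), Sae1 (-0.51) and Uba2 (-0.57). Ranbp2 had an r between -0.21 and 0.25 with each other member. A sum entered where its gate held at least 20 cells in that library, so gates too small for a test in some library were included. These sums share libraries, depth and the composition of each gate, so the correlations are a description. The gene most like Ranbp2 was Wrn (0.75), followed by Anapc2 (0.70), Oasl2 and Irgm1 (0.67 each). The most alike were Dctpp1 (0.92) for Sumo2, C1d (0.80) for Sumo3, Ppil1 (0.96) for Sae1, Rbmxl1 (0.97) for Uba2, Ube2e3 (0.97) for Senp1, Cep85 (0.67) for Senp2 and Ier5 (0.82) for Pias1, among 5954 genes considered.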

How the data were processed

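The 4 deposited matrices hold raw UMI counts per gene and barcode, made by the authors with Cell Ranger 3.1 from droplet 3′ libraries; the submitters' processing notes name mm10. Replicates were deposited separately. Of the gene identifiers, 27645 of 27998 (98.7%) were in the GENCODE annotation used here, which is of the same build (GRCm38). A barcode entered with 200 or more detected genes and a mitochondrial share of 10% or less, unless another library held 3 times its UMIs or more for the same sequence.

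Gates need at least 2 marker genes (3 for T or NK) and a minimum of marker UMIs per 10000. The members, marker lists, gates and tests were chosen with earlier results of these data known, and the gate minimums after marker levels and cell counts were seen. UMIs were summed per library, and per gate where each library had at least 20 cells. That minimum was set on the main gates and not applied again in the alternatives, some of whose gates held fewer cells. Sums were tested with edgeR 4.0.16 (quasi-likelihood test, filterByExpr, TMM, Benjamini-Hochberg at 0.05 over all genes tested) in R 4.3.3. Genotype fits had no block, and fits of gated against other cells and of the interaction had the library as a block. SE was read from the fold and its F value. The scripts were tested on simulated counts. The text names the 8 members in every comparison, from the lists of other SUMO genes and of partners examples past the threshold (some genes are not reported here), and the genes most alike by Pearson r of log2(CPM + 1).

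Alternatives were DESeq2 1.42.0, no filter on low counts, all deposited barcodes, 500 detected genes, stricter gates, thinned cells (561 of the kept cells were too shallow), each library left out, a replicate block and, added after the data were seen, library totals in place of TMM, further fits without cycle-gated cells, fits without cells of B lineage, plasmacytoid, plasma and T or NK gates, and a crossed block. Leaving out a library leaves a genotype with 1 sample, which is then assumed to vary like the other group.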

Additional observations from a re-analysis of the deposited data

Results flagged for a closer look

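The knockout-to-control difference in stem-like cells differed from that in the other cells of the same libraries, by the test of the interaction, for Sumo3 (log2 0.54), Uba2 (0.38), Sae1 (0.29) and Sumo2 (0.26). The edgeR fit called 13.2% of all genes. DESeq2 called Sumo3 and Sumo2, beside 5.83% of all genes. The stem-like gate also differed in its share of cycle-gated cells, at 33.6% and 14.4% in control 1 and 2 against 58.2% and 71.5% in Nup358 knockout 1 and 2. Without those cells, values of 0.38, 0.27, 0.06 and 0.08 remained in the same order of genes and were not called, with 99 and 140 knockout cells and 637 and 226 control cells left in the gate.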

How the results depend on the processing

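The depth of 18846887 to 59033602 UMIs a library was no narrow limit for sums over all cells, but gates with 20 to 70 cells a library gave wide errors, and 2 libraries per genotype bound every genotype test. Of 312 alternative values of single genes, 243 kept direction and side of the threshold, 55 lost a call, 10 gained one and 4 changed sign. The sign changed between genotypes with a library left out, over which Ranbp2 ranged from -0.046 (without control replicate 2) to 0.24, Senp1 from -0.041 (without control replicate 2) to 0.31 and Sumo2 from -0.025 (without control replicate 1) to 0.25, and for Ranbp2 in erythroid-primed cells (-0.11) with cells thinned to 2000 UMIs. The cause was not tested. Genes called between genotypes over all cells (474) were 946 with DESeq2, 1933 without the filter on low counts and 972 without cycle-gated cells, and 372 to 2890 with a library left out. Members called there (0) were 0 to 1 with a library left out. Calls within types (0) were 1 with all deposited barcodes, 2 without the filter, 1 with the stricter gate, 3 without cycle-gated cells, and 0 to 4 with a library left out. Calls of a type against the other cells (9) were 3 in thinned cells and 2 to 9 with a library left out, the lowest without control replicate 1. Calls in G2/M-gated cells (0) were 1 with all deposited barcodes, without the filter and in thinned cells, and in G1/S-gated cells (3) were 0 to 5 with a library left out. Interaction calls (4) were 2 with DESeq2 and 7 with the stricter gate, and their number also moved with a library left out. The share of all genes called moved too. In the stem-like interaction it was 13.2% in the main fit, 5.83% with DESeq2 and 2.05% without cycle-gated cells. Within gates it is not given for stricter gates, all deposited barcodes, no filter, thinned cells or left-out libraries. Member counts in those fits are not read as a result about the members. Same-numbered libraries of the genotypes deviated with a correlation of -0.18 over 5911 genes. With only 2 pairs this cannot show whether the numbers pair the libraries. With the replicate block, 1257 genes were called, 0 members over all cells and 0 within types. With the crossed pairing, 1735 genes, 0 members and 2 calls within types were counted.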

Other observations

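Gates too small in some library for a test gave values with exact 95% Poisson intervals, which cover counting error only. In the B lineage gate Kit was low in Nup358 knockout 1 (10 CPM, 4 UMIs) and Nup358 knockout 2 (19 CPM, 42 UMIs), beside 90 and 73 CPM over all their cells. Control 1 and control 2 had 0 and 1 Kit UMIs in this gate (0 and 58 CPM), too few to place their level. Sae1 stood in this gate at 298 CPM in control 1 (4 UMIs, 81.3 to 764), 348 CPM in control 2 (6 UMIs, 128 to 758), 259 CPM in Nup358 knockout 1 (99 UMIs, 210 to 315) and 302 CPM in Nup358 knockout 2 (650 UMIs, 279 to 326). Over all cells of the same libraries Sae1 stood at 154, 120, 162 and 177 CPM, below the interval of the gate in control 2 and in both knockouts. Uba2, its partner subunit, stood at 104 CPM (40 UMIs, 74.6 to 142) and 130 CPM (281 UMIs, 116 to 147) in the B lineage gate of the knockouts, against 119 and 124 CPM over all their cells. In the plasma gate of the knockouts Sae1 stood at 93.9 CPM (52 UMIs, 70.1 to 123) and 130 CPM (65 UMIs, 100 to 165), and Ranbp2 at 114 CPM (63 UMIs, 87.4 to 146) and 124 CPM (62 UMIs, 94.8 to 158). In the plasmacytoid dendritic gate Sae1 stood at 16.1 CPM (1 UMI, 0.407 to 89.6) and 112 CPM (12 UMIs, 57.8 to 195).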
